A study of Mus musculus with 4 samples.

Results

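The ubiquitin-specific peptidases (USPs) were examined in RNA sequencing of LPS-treated BV-2 microglial cells with and without a knockdown of SIX2. Members were the genes of the deposited expression table whose name is Usp followed by a number and an optional letter, leaving out Usp18, Usp50 and pseudogenes, which gave 45 of 24473 genes. Of these, 42 had enough reads to be tested. The name pattern also takes in Usp6nl, which encodes a GTPase-activating protein for Rab proteins and not a peptidase. A further 9 genes with such a name (Usp17la, Usp17lb, Usp17lc, Usp17ld, Usp17le, Usp26, Usp43, Usp51 and Usp9y) stand only in the wider count table and had a count of 0 in all 4 libraries.

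USPs are cysteine proteases that cut ubiquitin from proteins or take ubiquitin chains apart, and so oppose the ubiquitin ligases. They form the largest family of deubiquitinases, and most members have their own substrates, from histones and DNA repair proteins to receptors on endosomes. In macrophages and microglia, ubiquitin chains on adaptors and kinases carry signals from Toll-like receptors to NF-kB, and several deubiquitinases act on that route.

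BV-2 is an immortalised mouse microglial cell line. The SIX2 knockdown group had 2 libraries with genotype SIX2 knockdown (a short hairpin derivative, per the series' design text), and the control group had 2 libraries with genotype WT. All 4 came from cells given lipopolysaccharide (LPS), a bacterial product sensed by TLR4, at 100 ng/mL for 24 h, and the titles of both groups begin with sh, so what the controls carried is not clear from the labels. The labels do not say whether replicates were separate cultures or how many clones were used, so p-values cover no more than the differences among these 4 libraries, and those can be technical.

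The knockdown libraries held 74.7 and 64.3 M counts and the control libraries 75.7 and 61.0 M. Low counts peaked at multiples of 4, so 12 counts (3 fragments) were taken as the least that can be told from 0, which is 0.159 to 0.197 CPM (counts scaled to a library total) and covers counting error only. Six2 itself had a count of 0 in all 4 libraries, so the knockdown could not be checked on its transcript. Summed microglial markers stood at 2148 and 2093 CPM in knockdown and 2311 and 2367 CPM in control libraries. Of those 11 markers, edgeR called 3 lower and 0 higher, against 0.547% and 0.407% of all genes tested. The log2 differences of the 3 were -1.04 for Aif1, -0.48 for Csf1r and -0.63 for Adgre1 (adjusted p = 0.0440, 0.0426 and 0.0198, edgeR). Trem2 went the other way without being called, at 0.48 (adjusted p = 0.0969, edgeR). Those of Itgam, Ptprc, Cd68, Tyrobp and Spi1 lay between -0.08 and 0.05. Fcer1g was at -0.14, and Cx3cr1, under 1 CPM in every library, at 0.41. The part of these markers in the USP values was not tested. Summed neuronal markers (5 genes) stood at 3.62 and 0 CPM in knockdown libraries, against 7.22 and 7.37 CPM in control libraries. Summed oligodendrocyte markers (5 genes) stood at 9.79 and 0.316 CPM in knockdown and 19.1 and 17.1 CPM in control libraries, and astrocyte markers at 2.44 and 1.88 CPM in knockdown and 4.54 and 4.79 CPM in control libraries. Fibroblast markers were under 1 CPM in every library. All 3 brain marker sums were lower in both knockdown libraries, and their part in the results was not tested.

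The promoters of 3 members are shown because Usp31 and Usp7 were the members that 1 of the alternative tests called, and Usp2 had the largest positive fold change. Each is the 250 bases before the start that RefSeq gives (GRCm38.p6), written 5′ to 3′ on the gene's strand. Capitals mark the motifs searched for on both strands, which were the GC box GGGCGG, the CCAAT box CCAAT, the TATA box TATAAA, the E-box CACGTG, the AP-1 site TGANTCA and the core TGATAC known for homeodomains of the SIX2 family. Matches may overlap.
Usp31, chr7:121707443-121707692, minus strand: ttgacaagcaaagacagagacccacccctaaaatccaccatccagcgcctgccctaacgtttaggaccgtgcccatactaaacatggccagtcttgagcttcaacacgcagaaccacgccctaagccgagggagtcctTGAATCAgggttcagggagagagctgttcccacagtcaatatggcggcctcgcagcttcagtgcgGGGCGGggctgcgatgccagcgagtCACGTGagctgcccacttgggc
Usp7, chr16:8738343-8738592, minus strand: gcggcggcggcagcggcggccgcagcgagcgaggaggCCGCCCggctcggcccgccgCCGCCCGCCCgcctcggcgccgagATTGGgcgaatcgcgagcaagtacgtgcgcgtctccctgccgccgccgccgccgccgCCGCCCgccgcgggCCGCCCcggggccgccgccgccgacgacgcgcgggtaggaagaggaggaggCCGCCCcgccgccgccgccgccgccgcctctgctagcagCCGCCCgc
Usp2, chr9:44084670-44084919, plus strand: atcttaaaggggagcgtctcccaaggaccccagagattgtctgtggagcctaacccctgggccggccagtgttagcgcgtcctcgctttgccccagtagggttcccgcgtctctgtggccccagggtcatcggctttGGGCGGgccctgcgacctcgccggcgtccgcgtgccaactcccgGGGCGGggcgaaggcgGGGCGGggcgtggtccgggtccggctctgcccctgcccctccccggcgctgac

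The Usp7 stretch is a run of GCC and CCG repeats with a G and C content of 85.2%, against 71.6% for Usp2 and 58.4% for Usp31. It held 7 GC boxes and 1 CCAAT box (read as ATTGG), and the Usp2 stretch 3 GC boxes. The Usp31 stretch held 1 GC box, 1 E-box and 1 match to the AP-1 pattern TGANTCA, where N is any base (here TGAATCA). The RefSeq start lies 54.0 kb inside the Usp7 gene model and 17.9 kb inside the Usp2 gene model used for the coordinates below, so other starts exist for these genes, and the counts do not separate them.

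Of the 45 members, 35 had a promoter in the RefSeq table (36 promoters, since starts can be several). These were 300-base windows from 250 bases before to 50 after the start. Members' promoters had a median G and C content of 66.3%, against 52.7% over all 32851 promoters of the table, and a median of 30.5 CG dinucleotides, against 7. The GC box was found in 75.0% of members' promoters and 35.7% of all promoters. The E-box stood in 13.9% of members' promoters and 7.15% of all, and the AP-1 site in 8.33% and 7.81%. The CCAAT box stood in 22.2% of members' promoters and 37.4% of all, and the TATA box in 5.56% and 13.6%. The TGATAC core was in 0 of the 36, against 5.46% of all promoters, which says only that these letters are not in these windows.

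Levels between genes were compared in FPKM, fragments scaled to gene length and library total as the authors deposited them. The family ran from genes at the floor to well-expressed ones. A mean of at least 10 FPKM was reached by 8 members and of at least 1 FPKM by 36. The 8 highest were Usp39, Usp5, Usp1, Usp14, Usp7, Usp8, Usp19 and Usp22. Summed over the 45 members, the family took 2673 and 2713 CPM in the knockdown libraries, against 2577 and 2432 CPM in the control libraries. Both knockdown sums lay above both control sums, which was not particular to the family. Deubiquitinases of other families summed to 1821 and 1822 CPM in knockdown and 1797 and 1739 CPM in control libraries. Cofactor and ubiquitin supply genes, listed with USP substrates, summed to 6155 and 6133 CPM in knockdown and 5849 and 5977 CPM in control libraries.

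**Figure D1:**
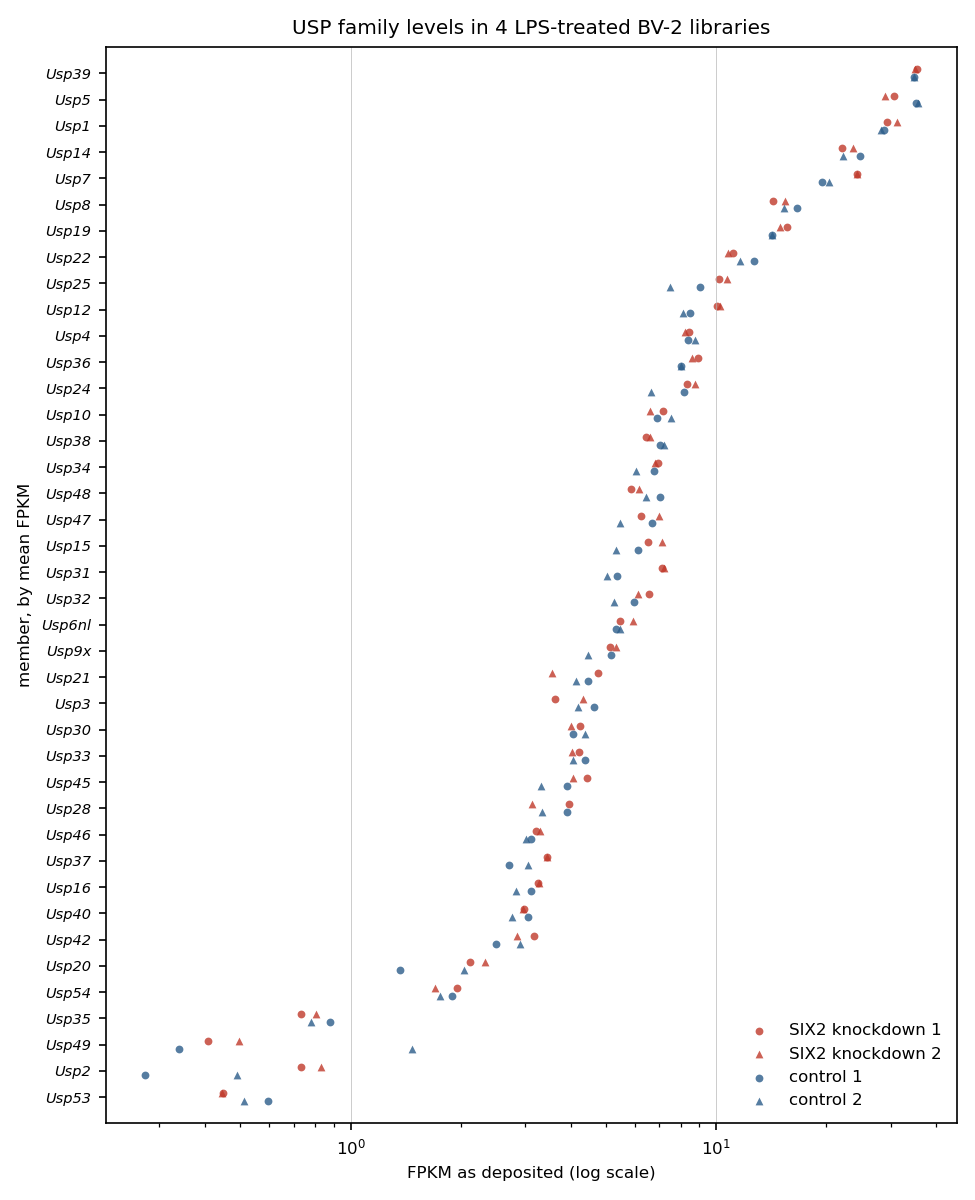
FPKM of the members on a log axis, 1 row per member in the order of the mean, for SIX2 knockdown libraries (red) and control libraries (blue), with circles for replicate 1 and triangles for replicate 2; members under 0.1 FPKM are left out. Usp39 leads at 35.0 FPKM, and Usp49 has control replicate 2 far to the right of its other libraries.

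The design asks which genes differ between SIX2 knockdown and control cells under LPS. No USP gene passed the test: edgeR's quasi-likelihood test called 0 of the 42 members at a Benjamini-Hochberg adjusted p under 0.05, against 0.953% of all 15733 genes tested (0.407% higher and 0.547% lower). At an unadjusted p under 0.05 there were 8 members (7 higher and 1 lower in knockdown), or 19.0%, against 14.2% of all genes (7.52% higher and 6.7% lower). Among genes that averaged 5 CPM or more the share was 18.4% of 38 members (6 higher and 1 lower) and 17.9% of all (10.6% higher and 7.36% lower), so the share of members is near the background. DESeq2 called 2 members, Usp31 and Usp7, where it called 4.22% of all genes. With no filter on low counts edgeR called Usp31 alone, where it called 1.3% of all genes. With limma-voom (0.413% of all genes called), a stricter filter (1.33%) and counts divided by 4 (1.28%) no member was called.

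Small positive differences were the common pattern. The fitted fold change was above 0 for 27 of the 42 members (64.3%), against 48.9% of all genes tested. Among genes averaging 5 CPM or more it was above 0 for 65.8% of members and 53.9% of all. The members' median was 0.11 on the log2 scale, against -0.01 over all genes tested and 0.02 over genes averaging 5 CPM or more. Both knockdown libraries lay above both control libraries in CPM for 21 members (50.0%) and below both for 6 (14.3%), or 64.3% together, against 23.8%, 23.8% and 47.6% of all genes. In FPKM, which are not TMM-scaled, the counts were 18 above and 6 below, against 20% and 27.5% of all genes. Usp29, at or under the floor, was among the members below in both measures. For genes averaging 5 CPM or more the shares were 52.6% above and 13.2% below for members, and 29% and 21.9% for all. The difference stayed within 1.25-fold for 33 of the 42. Without control replicate 2 the median was 0.05, and it was 0.05 with log2(FPKM + 1) values. That library read lower than control replicate 1 for 28 of 40 members, where knockdown replicate 1 was above knockdown replicate 2 for 18 of 40. For single members the median absolute log2 difference between replicates was 0.08 in knockdown and 0.15 in control libraries.

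**Figure D2:**
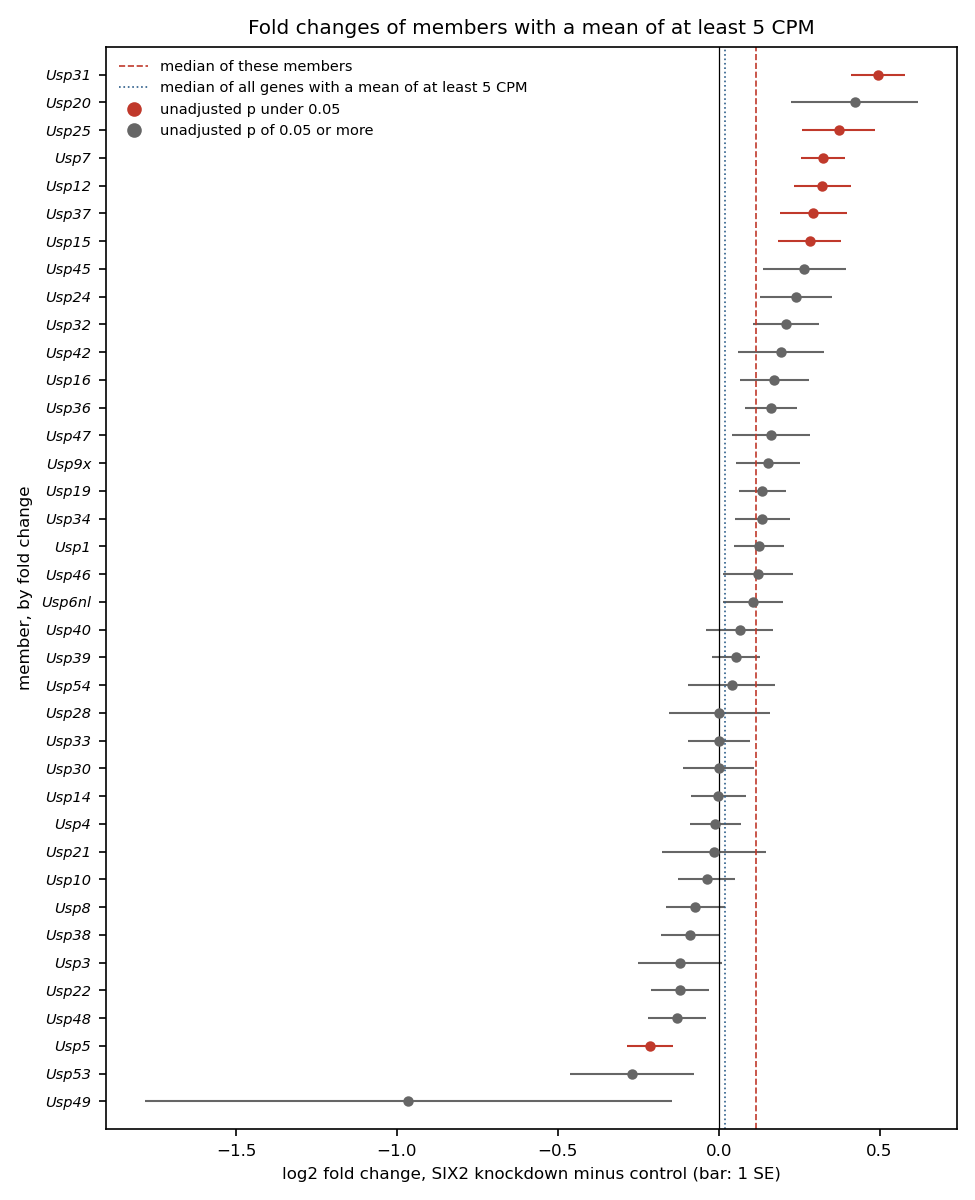
Fitted log2 fold change, SIX2 knockdown minus control, of the 38 members that averaged 5 CPM or more, in the order of the fold change, with bars of 1 SE. Points in red have an unadjusted p under 0.05. The red dashed line marks the median of these members, and the blue dotted line that of all genes at that level. None passed an adjusted p under 0.05 in edgeR.

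Among USPs tied to innate immune, NF-kB and TGF-beta signalling, 5 members were tested (Usp31, Usp25, Usp15, Usp4 and Usp38). Of these, 3 had an unadjusted p under 0.05, all higher in knockdown. That direction and p were reached by 7.52% of all genes, and by 10.6% of those averaging 5 CPM or more. Whether a role of 5 genes differs from that share was not tested. Usp31, a large USP reported in human cells to restrain NF-kB signalling, had the lowest p of the family. Usp31 (ENSMUSG00000063317, chromosome 7, 121642021 to 121707253, minus strand, GRCm38) stood at 7.11 and 7.20 FPKM in knockdown libraries, against 5.35 and 5.03 FPKM in control libraries. The 2 knockdown libraries were nearly equal and lay above both controls. The fitted difference was 0.50 ± 0.08 on the log2 scale (SE, 2 against 2 libraries), or 1.41-fold, with an adjusted p of 0.0611 by edgeR. Over the 15 alternative settings its log2 difference ran from 0.40 to 0.55 and its adjusted p from 0.000445 to 0.255; it passed with DESeq2 and with no filter on low counts (adjusted p = 0.0247).

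Usp25, which acts on TRAF adaptors in Toll-like receptor and IL-17 signalling, stood at 10.2 and 10.7 FPKM in knockdown libraries and 9.02 and 7.49 FPKM in control libraries. Its groups did not overlap, but the controls were further apart than the knockdown libraries. The log2 difference was 0.37 ± 0.11 (adjusted p = 0.218, edgeR), and 0.24 without control replicate 2. Usp15, which deubiquitinates proteins of the TGF-beta receptor and SMAD pathway, had 6.51 and 7.10 FPKM in knockdown libraries, against 6.12 and 5.33 FPKM in control libraries. The nearest libraries of its groups were close, and the log2 difference was 0.28 ± 0.10 (adjusted p = 0.270, edgeR), and 0.18 without control replicate 2.

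The other tested members of this role had small differences. Usp4, which is closely related to Usp15 and binds the splicing factor Sart3, averaged 8.31 ± 0.14 FPKM in knockdown and 8.57 ± 0.26 FPKM in control libraries (SD, n = 2 each), with overlapping groups and a log2 difference of -0.01. Usp38, a regulator of type I interferon signalling, averaged 6.52 ± 0.11 FPKM in knockdown and 7.10 ± 0.12 FPKM in control libraries, with both knockdown values below both controls and a log2 difference of -0.09 ± 0.09.

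Among USPs of chromatin, DNA repair and the cell cycle, 12 of 14 were tested, with a median log2 difference of 0.06. Of the 12, 2 (16.7%) had an unadjusted p under 0.05, both higher in knockdown, against 7.52% of all genes. Usp7, the nuclear peptidase that stabilises Mdm2 and p53, was the clearest of them. Usp7 (ENSMUSG00000022710, chromosome 16, 8689595 to 8792308, minus strand) had 24.3 and 24.3 FPKM in knockdown libraries, against 19.5 and 20.4 FPKM in control libraries. Its groups did not overlap, and the gap was several times the spread within either. The log2 difference was 0.32 ± 0.07, or 1.25-fold (adjusted p = 0.104, edgeR; 0.00685 with DESeq2), and it ran from 0.28 to 0.35 over the 15 alternatives, with an adjusted p of 0.00685 to 0.340.

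Usp37, which in human cells stabilises cyclin A at the start of S phase, had 3.45 and 3.44 FPKM in knockdown libraries and 2.70 and 3.05 FPKM in control libraries. The knockdown libraries agreed closely and lay above both controls, with a log2 difference of 0.29 ± 0.10 (adjusted p = 0.270, edgeR). Usp1, which removes ubiquitin from Fancd2 and PCNA, had 29.3 and 31.3 FPKM in knockdown libraries, against 28.7 and 28.2 FPKM in control libraries. Its log2 difference was 0.13 ± 0.08 (adjusted p = 0.531, edgeR), with the groups apart by little. Usp22, the deubiquitinase of the SAGA coactivator, had 11.1 and 10.8 FPKM in knockdown libraries, against 12.7 and 11.6 FPKM in control libraries, with a log2 difference of -0.12 ± 0.09 (adjusted p = 0.621, edgeR). Usp48, a nuclear USP, had 5.84 and 6.14 FPKM in knockdown libraries and 7.02 and 6.41 FPKM in control libraries, with a log2 difference of -0.13 ± 0.09 (adjusted p = 0.596, edgeR). For both genes the knockdown libraries lay below the controls by less than the test could separate.

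Usp49, a histone H2B deubiquitinase, had the largest negative fold change at or above 5 CPM, and it rested on control replicate 2. Its counts were 293 and 304 in knockdown libraries, against 248 and 857 in control libraries, so control replicate 2 stood far above the rest and the groups overlapped. The log2 difference was -0.96 ± 0.82 (adjusted p = 0.703, edgeR), and without control replicate 2 it was 0.43. In the annotation 51.2% of the exonic bases of Usp49 are shared with Gm20517 on the same strand, so reads there could be assigned to either. Gm20517 had 112 and 39 counts in knockdown and 39 and 31 in control libraries. Tomm6, which overlaps Usp49 on the opposite strand over 93 exonic bases, was low in control replicate 2. It had 12852 and 10921 counts in knockdown and 17952 and 4286 in control libraries. The part of either overlap in the Usp49 counts was not tested.

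The others of this role lay close to their controls. Usp36, a nucleolar peptidase, averaged 8.74 ± 0.22 FPKM in knockdown and 8.00 ± 0.01 FPKM in control libraries, a log2 difference of 0.16 ± 0.08. Usp16, a histone H2A deubiquitinase, had a log2 difference of 0.17 ± 0.11, and Usp3, which also acts on H2A, one of -0.12 ± 0.13. Usp21 and Usp28 overlapped between groups, with differences of -0.01 and 0.00. Usp27x was near the floor, with 42 and 11 counts in knockdown and 12 and 20 counts in control libraries. Usp11 (8 and 12 counts in knockdown, 8 and 8 in control libraries) and Usp44 (0 and 4 in knockdown, 8 and 0 in control libraries) were at or under the floor in every library and were not tested.

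For the proteasome and free ubiquitin chains the family has 2 tested members. Usp5, which breaks down unanchored ubiquitin chains, was the only member lower in knockdown at an unadjusted p under 0.05. Usp5 (ENSMUSG00000038429, chromosome 6, 124815019 to 124829484, minus strand) had 30.7 and 29.0 FPKM in knockdown libraries, against 35.2 and 35.7 FPKM in control libraries. Both knockdown values lay below both controls, by more than the spread within either group. The log2 difference was -0.21 ± 0.07 (adjusted p = 0.255, edgeR) and kept its sign in all 15 alternatives, from -0.26 to -0.17. Usp14, the peptidase that sits on the proteasome's regulatory particle, had 22.1 and 23.7 FPKM in knockdown and 24.7 and 22.3 FPKM in control libraries, which overlap. Its log2 difference was 0.00 ± 0.08 (adjusted p = 0.998, edgeR), and its exons share 26% of their bases with Thoc1 on the opposite strand, where reads can be told apart only if counting used the strand.

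**Figure D3:**
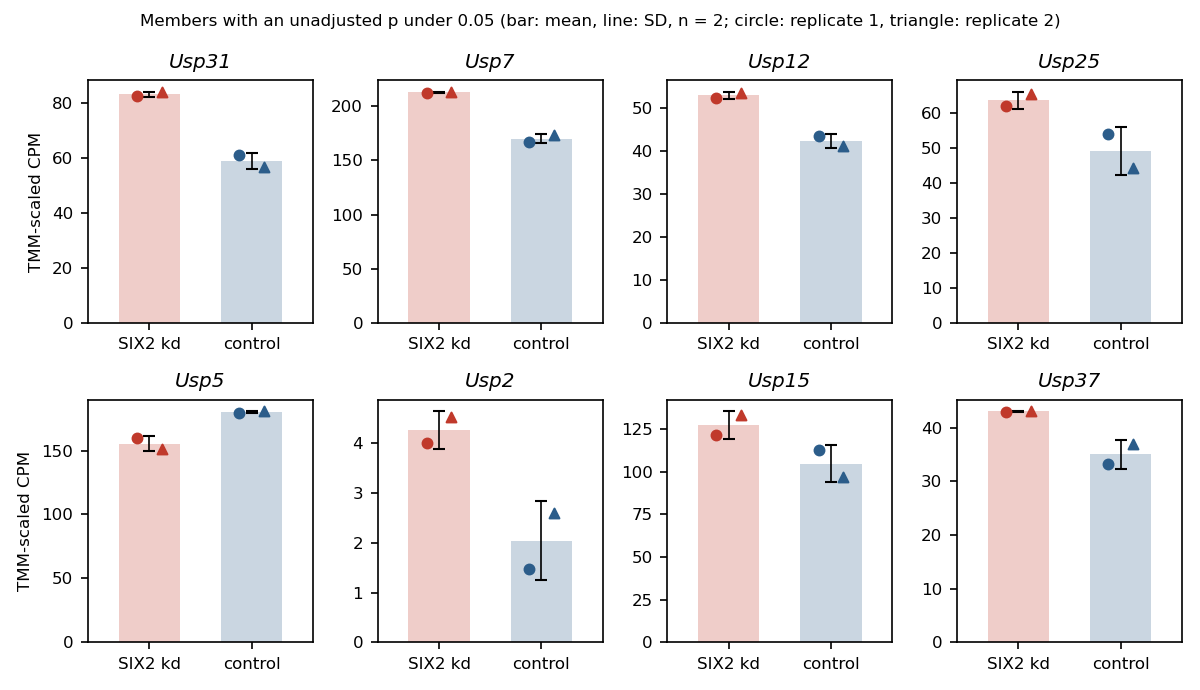
TMM-scaled CPM of the 8 members with an unadjusted p under 0.05, with SIX2 knockdown left of control in each panel, bars for means, lines for SD (n = 2) and points for libraries. In 7 panels both knockdown libraries lie above both controls, while for Usp5 both lie under them; no member passed the adjusted threshold in edgeR.

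Among members of membrane traffic, endocytosis and autophagy, counted with Usp6nl, which is not a peptidase, 10 of 11 were tested. Of the 10, 2 (20%) had an unadjusted p under 0.05, both higher in knockdown, against 7.52% of all genes. These were Usp12 and Usp2, and Usp2 was counted in this role although the functions named for it below are others. Both knockdown libraries lay above both controls for 7 of the 10 in CPM, Usp6nl among them (23.8% of all genes). In FPKM this held for 5, without Usp6nl (20% of all genes). Usp12, which works in a complex with the WD40 proteins Wdr48 and Wdr20, had 10.03 and 10.2 FPKM in knockdown libraries, against 8.48 and 8.11 FPKM in control libraries. Its groups were well apart, with a log2 difference of 0.32 ± 0.09, or 1.25-fold (adjusted p = 0.186, edgeR).

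Usp2, a peptidase known for circadian expression and for stabilising cyclin D1, had the largest fold change of the members with a low p, at a low level. Usp2 (ENSMUSG00000032010, chromosome 9, 44067021 to 44095627, plus strand) had 296 and 287 counts in knockdown libraries, against 113 and 161 counts in control libraries, or 0.732 and 0.829 FPKM in knockdown and 0.273 and 0.489 FPKM in control libraries. The knockdown libraries were close together and lay above both controls, which differed more from each other. The log2 difference was 1.06 ± 0.36, or 2.09-fold (adjusted p = 0.255, edgeR), and it stayed above 0 in all 15 alternatives, from 0.37 to 1.53, with 0.71 without control replicate 1.

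Usp20, which deubiquitinates receptors returning to the cell surface, had 2.12 and 2.33 FPKM in knockdown libraries and 1.37 and 2.04 FPKM in control libraries. Its controls were far apart, and the log2 difference was 0.42 ± 0.20 (adjusted p = 0.413, edgeR); it was 0.17 without control replicate 1 and 0.73 without control replicate 2. Its relative Usp33 overlapped between groups, with a difference of 0.00. Usp8, the endosomal peptidase that binds Stam, had 14.3 and 15.4 FPKM in knockdown and 16.7 and 15.3 FPKM in control libraries, which overlap, with a log2 difference of -0.07 ± 0.09 (adjusted p = 0.798, edgeR).

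The remaining members of this role had small differences. Usp9x, a large X-linked peptidase, averaged 5.22 ± 0.15 FPKM in knockdown and 4.81 ± 0.49 FPKM in control libraries, a log2 difference of 0.15 ± 0.10. Usp32 averaged 6.33 ± 0.29 FPKM in knockdown and 5.61 ± 0.52 FPKM in control libraries, a log2 difference of 0.21 ± 0.10. Usp46, the relative of Usp12, had a difference of 0.12 ± 0.11. Usp10, which binds the stress granule protein G3bp1, had one of -0.04 ± 0.09, and Usp6nl one of 0.11 ± 0.09. Usp13 had a count of 0 in every library and was not tested.

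Of the organelle-bound members, Usp19, which has a form anchored in the endoplasmic reticulum, had 15.6 and 14.9 FPKM in knockdown libraries, against 14.2 and 14.2 FPKM in control libraries. The groups were apart, with a log2 difference of 0.14 ± 0.07 (adjusted p = 0.474, edgeR). Usp30, the mitochondrial outer membrane peptidase that opposes parkin, averaged 4.12 ± 0.16 FPKM in knockdown and 4.22 ± 0.22 FPKM in control libraries, with a difference of 0.00 ± 0.11. Usp39, a splicing factor of the tri-snRNP that lacks peptidase activity, was the most abundant member, with 35.4 and 35.1 FPKM in knockdown and 34.7 and 34.8 FPKM in control libraries. All 4 libraries lay within 1 FPKM of each other, and the log2 difference was 0.05 ± 0.07 (adjusted p = 0.811, edgeR).

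Usp24, Usp34, Usp35, Usp40, Usp42, Usp45, Usp47, Usp53 and Usp54 make up a group of 9 with other roles, and all lay within 1.25-fold. None had an unadjusted p under 0.05, against 14.2% of all genes. Usp24 and Usp45 had the largest positive differences, 0.24 ± 0.11 and 0.27 ± 0.13 on the log2 scale. Usp24 averaged 8.54 ± 0.28 FPKM in knockdown and 7.40 ± 1.06 FPKM in control libraries, and the controls were the wider pair. Usp53, which belongs to cell junctions, had 0.449 and 0.446 FPKM in knockdown libraries, against 0.593 and 0.512 FPKM in control libraries. Both knockdown values lay below the controls, with a log2 difference of -0.27 ± 0.19 (adjusted p = 0.605, edgeR). Usp34, linked to Wnt signalling through axin, and Usp47, a relative of Usp7, had differences of 0.14 ± 0.08 and 0.16 ± 0.12. Usp29, a germline and brain gene outside that group, had 8 and 0 counts in knockdown and 12 and 10 counts in control libraries, at or under the floor, so no fold change is given.

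Ratios between close relatives remove what a library does to both genes alike. The pairs were chosen after values were seen, so these are descriptions with no test. Which gene stands on top was set by hand and fixes the sign of a ratio, so the directions carry no result. Of 9 pairs, the log2 ratio of FPKM was higher in both knockdown libraries than in both controls for 4, lower for 1 and overlapping for 4. On top in those 4 higher pairs stood Usp15, Usp12, Usp25 and Usp20, already named for a low p or a large rise. The share over other gene pairs was not computed. The log2 ratio of Usp12 over Usp46 was 1.64 and 1.63 in knockdown libraries, against 1.44 and 1.43 in control libraries, so replicates agreed closely and the groups stood apart. Usp25 over Usp28 was 1.36 and 1.77 in knockdown and 1.20 and 1.16 in control libraries. Usp15 over Usp4 was -0.37 and -0.21 in knockdown and -0.46 and -0.71 in control libraries. Usp20 over Usp33 touched, with -0.99 and -0.79 in knockdown and -1.68 and -0.99 in control libraries. Usp53 over Usp54, with a gene named for a large fall on top, was -2.12 and -1.93 in knockdown and -1.67 and -1.77 in control libraries.

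**Figure D4:**
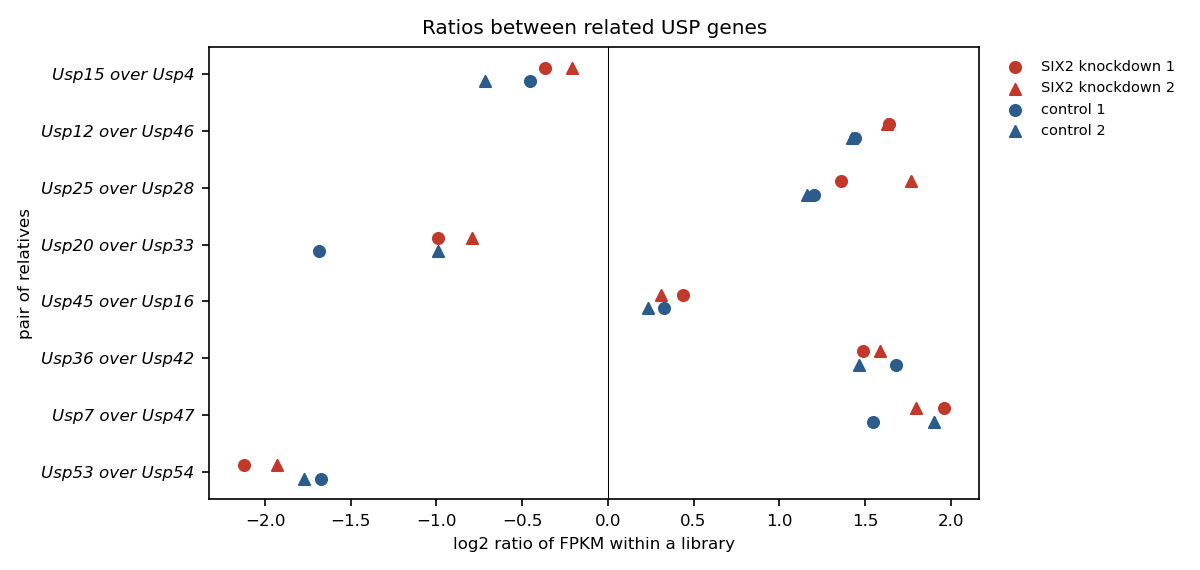
Log2 ratio of FPKM between related USP genes within each library, for SIX2 knockdown (red) and control (blue), circles for replicate 1 and triangles for replicate 2; Usp22 over Usp27x is left out because Usp27x is near the floor. Usp12 over Usp46 separates the groups with the closest replicates (1.64 and 1.63 against 1.44 and 1.43).

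Deubiquitinases of other families gave a reference. Of 35, 33 were tested and edgeR called 0. At an unadjusted p under 0.05 there were 5, or 15.2%, against 14.2% of all genes. Mindy1, Otud3 and Otud4 were the 3 higher, and Tnfaip3 and Mindy2 the 2 lower. DESeq2 called 3 (Mindy1 and Otud3 higher, Tnfaip3 lower), where it called 4.22% of all genes. The median log2 difference of the 33 was 0.01. In CPM 10 lay above both controls and 10 below (23.8% of all genes each way), and in FPKM 6 lay above and 10 below (20% and 27.5% of all genes). The USP median was 0.11, and whether the 2 lists differ was not tested. Otulin, which cuts linear ubiquitin chains, led at 52.7 and 53.3 FPKM in knockdown libraries and 62.2 and 58.0 FPKM in control libraries. Psmd14, the proteasome's own deubiquitinase, and Otub1 followed, with log2 differences of 0.06 ± 0.09 and -0.07 ± 0.22. Mindy1, which trims ubiquitin chains, had 14.8 and 15.0 FPKM in knockdown and 10.03 and 11.2 FPKM in control libraries, a log2 difference of 0.52 ± 0.08 (adjusted p = 0.0513, edgeR). In this list and the next, genes other than Otulin, Psmd14, Otub1, Ubb and Rps27a were named after their values were seen.

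The list of USP cofactors and ubiquitin supply genes had no called member. It also held genes of other kinds, namely the Usp1 substrates Fancd2 and Fanci, Mdm2 and Trp53 of the Usp7 axis, and Becn1, a partner of Usp10 and Usp13. All 26 were tested and edgeR called 0, as did DESeq2, with a median log2 difference of 0.02. At an unadjusted p under 0.05 there were 4 (Dmwd, Trp53 and Rps27a higher, Becn1 lower), or 15.4%, against 14.2% of all genes. In CPM 10 lay above both controls (38.5%) and 3 below (11.5%), against 23.8% of all genes each way. In FPKM 8 lay above and 4 below (20% and 27.5% of all genes). Ubb and Rps27a, which encode ubiquitin, were among the most abundant. Ubb had 552 and 584 FPKM in knockdown and 535 and 621 FPKM in control libraries, which overlap. Rps27a had 555 and 577 FPKM in knockdown and 499 and 529 FPKM in control libraries, with a log2 difference of 0.17 ± 0.07 (adjusted p = 0.319, edgeR). Wdr48 and Wdr20, the partners of Usp12, had log2 differences of 0.20 ± 0.09 and -0.22 ± 0.13, and Dmwd, a relative of Wdr20, one of 0.47 ± 0.13 (adjusted p = 0.192, edgeR).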

How the data were processed

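Poly(A) RNA from 4 libraries of LPS-treated BV-2 cells was sequenced paired-end, with a dUTP strand-marking protocol, per the labels' protocols. The authors deposited estimated counts, whole numbers per Ensembl gene with no normalisation, and FPKM, fragments scaled to length and library total per the file headers. Bowtie 0.12.2 and the build mm8 are named per the submitters' processing notes; the counting program and its use of strand are not given in the sources used here. Despite that build, 21839 of 24422 genes (89.4%) matched GENCODE M21 (GRCm38) in start and end, and 38 of the 45 members did, so that build is used. Of low counts (1 to 20), 42.1% to 47.2% were multiples of 4. Another 12 value columns match no labelled sample and were not used.

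Counts were already whole. The test was edgeR 4.0.16 in R 4.3.3 (TMM, genes kept by filterByExpr with the groups, robust quasi-likelihood fit, two-sided F test, Benjamini-Hochberg over all genes); SE is the absolute log2 difference over the square root of F. Replicates differed beyond counting error, with chi-square over degrees of freedom, computed on fragments, at 18.2 in knockdown and 17.5 in control. An exact permutation test of 2 against 2 cannot go below p = 0.333, so none is given. On simulated counts for this comparison (15733 genes), 28.4% of genes changed 1.5-fold, 82.1% changed 2-fold and 97.0% changed 4-fold were recovered, with 6 false calls. Changes were put only into genes averaging 5 CPM or more. Every gene was drawn with the spread fitted for its level, without a spread of its own. Recovery for lower genes, such as Usp2 (mean 3.15 CPM), or for genes with an outlying library, such as Usp49, was not simulated.

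Alternatives were DESeq2 1.42.0, limma-voom and limma-trend on FPKM (log2, pseudocount 1 or 0.1; limma 3.58.1), RLE factors, library totals alone, no filter, a stricter filter, no robust option, the replicate block, leaving out each library and, added after the data were seen, counts divided by 4. Members with an unadjusted p under 0.05, the 8 highest in FPKM and the 4 largest fold changes each way at 5 CPM or more get full values. A gene that the naming rule would take is not reported here. The members and lists were chosen with earlier results of these data known.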

Additional observations from a re-analysis of the deposited data

How the results depend on the processing

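The count of called USP members was 0 in edgeR and 2 with DESeq2. Those were Usp31 (log2 difference 0.49, adjusted p = 0.000445, DESeq2) and Usp7 (0.32, adjusted p = 0.00685, DESeq2). With no filter the count was 1 (Usp31, 0.50, adjusted p = 0.0247, edgeR). In the other alternatives that kept all 4 libraries it was 0. Some of these called few genes of any kind, 7 with no robust option and 3 with limma-trend at either pseudocount, so a count of 0 members says little there. Other deubiquitinases had 3 called with DESeq2 and 1 (Mindy1) with no filter, a stricter filter or counts divided by 4; the cause was not tested. The family's median log2 difference was 0.115 in edgeR with TMM and 0.081 with library totals alone. It was 0.078 with log2(FPKM + 0.1) and 0.048 with log2(FPKM + 1), which shrinks low values by construction. When 1 library was left out the median ran from 0.053 (without control replicate 2) to 0.13. With 1 library left in a group, that library was assumed to vary like the other group. Usp14 turned from 0.00 to above 0 with no filter (0.0024) and with the replicate block (0.00021), and when 1 library was left out ranged from -0.078 (without control replicate 2) to 0.081 (without control replicate 1). Usp49 ranged from -1.66 (without control replicate 1) to 0.43 (without control replicate 2). The replicate numbers did not pair the samples (correlation of replicate differences -0.07 over 9982 genes); with the replicate block 0 members and 0 of all genes were called, and the median was 0.11. In simulated counts 28.4% of 1.5-fold changes were recovered, all in genes averaging 5 CPM or more. Smaller changes and changes in lower genes were not simulated.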
